A study of Mus musculus with 2 samples.

Results

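The regions described here are the 5′ untranslated regions (5′ UTRs) that gave piRNA-sized small RNAs in the juvenile mouse testis. A 5′ UTR is the stretch of a messenger RNA between its cap and its start codon. It was taken from the longest coding transcript of each protein-coding gene in GENCODE M21 and was kept when at least 50 reads of 24 to 30 nt, summed over both libraries, began inside it and matched no other gene. Of 20685 annotated 5′ UTRs, 7213 had at least 1 such read and 785 reached the minimum. The members were chosen by these summed reads, so their abundance is a description and supports no comparison. At the minimum, 20 regions had exactly 50 reads, among them those of Ajuba (12 reads in Tdrkh-/- and 38 in Tdrkh+/-), Anapc13 (5 and 45) and Ddx46 (0 and 50). A further 21 regions had 49 reads and stayed out, among them those of 4931428L18Rik (22 and 27), Arf6 (22 and 27) and Cd3e (14 and 35).

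The study compared 1 small RNA library from Tdrkh-/- testes with 1 from Tdrkh+/- testes, each made from 5 testis pairs pooled at 11 dpp (days post partum). Exons 2 to 4 of Tdrkh, with the start codon in exon 2, had been floxed and were deleted with EIIa-Cre, which acts in the early embryo, on a mixed C57Bl6/129 background. The EIIa transgene was later bred out, and heterozygotes, which carry the same deletion on 1 allele, served as the control. More than 1 knockout line had been derived, and the labels do not say which gave the pooled animals. With 1 library per genotype there was no replicate check, no p-value was computed, and all intervals cover counting error at 95% confidence. In bulk testis RNA, fewer cells of a type and less RNA per cell cannot be told apart.

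Piwi-interacting RNAs (piRNAs) are germline small RNAs bound by PIWI proteins. In the primary pathway a long single-stranded precursor is cut into pieces whose 5′ end usually carries uridine, the pieces are loaded onto a PIWI protein, and their 3′ ends are shortened to the mature length. TDRKH, which carries Tudor and KH domains and sits on the mitochondrial outer membrane, is known to take part in that shortening. Before meiosis many testis piRNAs come from messenger RNAs, above all from 3′ UTRs, and 5′ UTRs are a lesser source.

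The libraries held 60973266 reads (Tdrkh-/-) and 43172204 reads (Tdrkh+/-), of which 24.2% and 71.7% were 24 to 30 nt long. Levels are given per microRNA read, and there were 2486303 and 2363475 of those. Exons 2 to 4 of Tdrkh had 0 sense reads (24 to 40 nt) in Tdrkh-/- against 17 in Tdrkh+/-, and the other exons had 269 and 457. Germ cell marker transcripts (Ddx4, Dazl, Zbtb16, Sycp3 and Stra8) gave 1209 and 4915 reads of 24 to 30 nt, Sertoli cell markers 540 and 630, Leydig cell markers 317 and 578, peritubular markers 767 and 358, macrophage markers 10 and 26 and endothelial markers 222 and 196. No 5′ UTR of a Sertoli, Leydig, peritubular, macrophage or endothelial marker was a member, and Dazl was the sole germ cell marker among them. The part of cell composition in the ratios given here was not tested.

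The 10 most abundant 5′ ends in member regions all began with uridine. Each is shown by its most abundant sequence of at most 30 nt, 5′ to 3′ as deposited, with T for U and the 5′ base in capitals; a position counts from 1 at the annotated transcript start, which stands for the cap. They are shown because they carry much of the signal and because their neighbours on the same messenger RNA can be compared base by base. The first 5 lie in the 5′ UTR of Fth1, which encodes the heavy chain of the iron store ferritin.
Fth1 position 665: Ttcaacagtgcttgaacggaacccggt
Fth1 position 673: Tgcttgaacggaacccggtgctcgaccc
Fth1 position 721: Ttcgagcctgagccctttgcaacttcgt
Fth1 position 729: Tgagccctttgcaacttcgtcgttccgcc
Fth1 position 738: Tgcaacttcgtcgttccgccgctccagc
Rps25 position 594: Tacacgactctctgagcttcgccatgcct
Rhob position 46: Taggtctagagtgaacccgccccgggaa
Hist1h1d position 1810: Tactagtaaagcttagaacatgtccgaga
Pfdn6 position 114: Ttctggacgaaaagaggctgcggcgcc
Asb1 position 215: Tgacgatacaagactccatgatgcagcct
The coordinates (GRCm38) are chr19:9982739-9982765, chr19:9982747-9982774, chr19:9982795-9982822, chr19:9982803-9982831 and chr19:9982812-9982839 for Fth1, all on the plus strand. Rps25 lies at chr9:44407732-44407990 (plus, across a splice junction), Rhob at chr12:8499937-8499964 (minus), Hist1h1d at chr13:23555071-23555099 (plus), Pfdn6 at chr17:33940204-33940230 (minus) and Asb1 at chr1:91544214-91544242 (plus). The reads shown for Rps25, a protein of the small ribosomal subunit, and Hist1h1d, a linker histone, run across the start codon into the coding region. All 10 of these 5′ ends had fewer 24 to 30 nt reads per microRNA read in Tdrkh-/-, with log2 ratios from -4.92 at Asb1 to -2.42 at Hist1h1d. They were ranked by summed reads, most of which came from Tdrkh+/-, so that this direction is a description.

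Fth1 gave more reads than any other member. Its 5′ UTR (ENSMUSG00000024661.7, 795 nt, chr19:9980598-9982869) had 4561 short reads (24 to 30 nt) in Tdrkh-/- against 50993 in Tdrkh+/-, a log2 ratio of -3.56 (-3.60 to -3.51). With each distinct sequence counted once the log2 ratio was -0.68, short of 2-fold. Its long reads (31 to 37 nt) numbered 20323 and 7850, for a log2 ratio of 1.30 (1.26 to 1.34). The ends at positions 665 and 673, 8 bases apart in the sequences above, differed in length. At 673, 1808 and 21984 reads were 24 to 30 nt long and 132 and 415 were 31 to 37 nt long, so both classes were lower in Tdrkh-/- (log2 -3.68 and -1.73). At 665, 226 and 1973 reads were short and 8805 and 693 were long, with log2 ratios of -3.20 and 3.59, and the mean length was 35.7 nt in Tdrkh-/- against 29.5 nt in Tdrkh+/-. The end at 721 had 216 and 3378 short and 8761 and 4061 long reads. A gain of long reads was therefore a property of single 5′ ends within this UTR and was absent at 673, 729 and 738. The letters CAGTGC, the loop of the iron responsive element by which iron regulatory proteins control ferritin translation, occur once in this UTR, at positions 670 to 675 on the sense strand. The hexamer starts 126 nt before the start codon, and the end at 673 falls inside it. The same letters occur on the sense strand in 5.04%, and on either strand in 9.82%, of 12001 windows of 146 nt that end at a start codon, so the match is a description of where this end lies. RefSeq places starts of Fth1 transcripts 2 nt and 2048 nt of genome downstream of the GENCODE start, and all 5 ends lie downstream of the second.

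A minimum on reads favours long regions, and members were longer than most annotated 5′ UTRs, with a median of 376 nt (7 to 7607) against 178 nt over all 20685. Their median GC content was 60.1%. A member had a median of 101 reads of 24 to 30 nt, 15 distinct 5′ ends and 32.1 reads per 100 nt, and its most abundant 5′ end carried a median of 38% of its reads. Reads were concentrated: Fth1 held 24.2% of them, the 10 most abundant members 37.6% and the 100 most abundant 64.9%. Sums are therefore given with and without Fth1 where that matters.

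Within the members, 5′ ends were sparse in the part nearest the annotated start and became denser toward the start codon. Averaged over members with equal weight, the first of 10 equal bins of the UTR held 4.01% of the reads of 24 to 30 nt and the last bin 19.9%, while each bin held close to 10% of the bases. The rise was seen in both libraries: without Fth1, the last bin held 18.4% of reads in Tdrkh-/- and 20.8% in Tdrkh+/-, and the first bin 4.27% and 4.13%. The thymine content of the bins moved less, from 19.8% in the first to 22.4% in the last. The bins follow the longest annotated transcript, and whether its upstream part is present in testis RNA was not tested. Among long annotated 5′ UTRs, Hist1h1d (1828 nt) had 99.7% of its reads in the last 50 nt. Ubl5 (1587 nt) had 94.1% there and Rps25 (616 nt) 95.7%, while Noct (7607 nt) had none.

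The first 10 nt after the annotated start held 0.639% (0.567 to 0.721) of reads in Tdrkh-/- and 0.449% (0.420 to 0.480) in Tdrkh+/-, on 1.98% of the bases. Reads that began at the first annotated base made up 0.0537% and 0.0935%. With another choice of start this scarcity was lost, in Tdrkh+/- through Fth1. Measured from the nearest annotated start of any transcript of the gene, the first 10 nt held 10.04% and 15.03% of reads on 4.79% of the bases. Once Fth1 was left out they held 5.85% and 3.56%, again on 4.79% of the bases, so the share in Tdrkh+/- was below that of the bases. From the nearest RefSeq start, available for 607 members, the shares were also low, at 0.782% and 0.799%, and the share of bases there is not given.

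The last 50 nt before the start codon held 26.7% (26.2 to 27.1) of reads in Tdrkh-/- and 24.7% (24.5 to 24.9) in Tdrkh+/-, on 9.84% of the bases. This share of bases rests on the annotated length as well. Without Fth1, whose reads lie farther upstream, the shares were 29.97% and 33.9%. The last 10 nt alone held 7.25% and 6.74% of reads on 1.98% of the bases. Reads that began in the 5′ UTR and ran across the start codon made up 18.9% and 16.8%. Single members differed widely: the last 50 nt held a median of 8.86% of a member's reads, with quartiles of 0.0579% and 59.0%. Hist1h2bb, whose UTR is 61 nt long, had all of its reads there, and Noct had none.

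**Figure D1:**
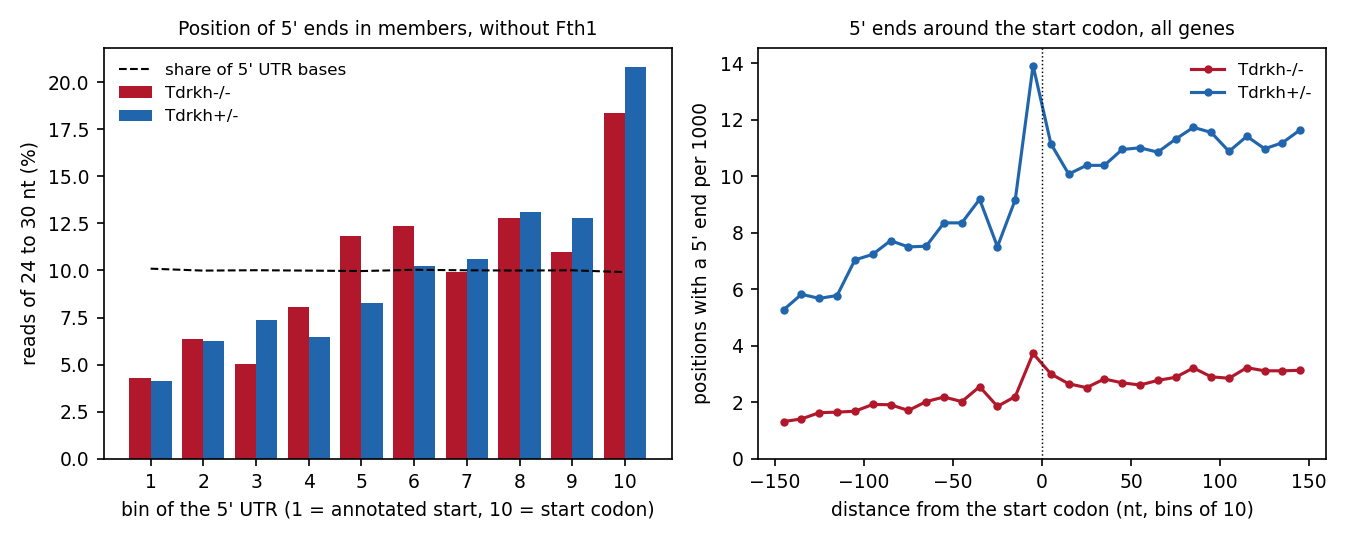
Left, share of 24 to 30 nt reads (percent) whose 5′ end lies in each of 10 equal bins of the 5′ UTR, for members without Fth1, with the share of bases as a dashed line; right, number of positions per 1000 with at least 1 5′ end, in bins of 10 nt around the start codon of 11750 genes. Bars rise toward the start codon in both libraries, to 18.4% and 20.8% in the last bin, and the occupied positions peak in the bin that ends at the start codon.

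The same rise was visible over all genes and without weighting by reads. In the 11750 genes with at least 150 nt on both sides of the start codon, 6.79 of 1000 positions held a 5′ end between 150 and 51 nt upstream in Tdrkh+/-, 9.62 between 50 and 1 nt upstream, 10.6 in the first 50 nt of the coding region and 11.3 in the next 100 nt. The values in Tdrkh-/- were 1.75, 2.47, 2.74 and 2.98. The density in 5′ UTRs thus approached that of the coding region over the last 150 nt. These positions too follow the longest annotated transcript, and the starts used in the testis were not tested.

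Among genes with uridine at a given position, a single position had the highest value in both libraries. At 4 nt before the A of the start codon, just ahead of the base that is usually a purine in the initiation context, 1459 of the 11750 genes have uridine. Of these, 107 had a 5′ end there in Tdrkh+/-, or 73.3 per 1000 (61.1 to 87.9), while the uridine positions from 30 to 10 nt upstream had a median of 22.4 per 1000 (15.5 to 31.9 over the single positions). The positions closer by lay between: those from 9 to 5 nt upstream had 32.7 to 39.04, and those 3, 2 and 1 nt upstream 33.2, 33.2 and 46.2. In Tdrkh-/- 29 genes had one, or 19.9 per 1000 (13.9 to 28.4) against a median of 5.10 (2.49 to 7.65), and the position 2 nt upstream, at 14.5 (9.75 to 21.5), was within counting error of it. Genes with another base were not highest at this position, with 13.2 per 1000 at 4 nt and 14.6 at 2 nt upstream in Tdrkh+/-, and 3.11 and 4.46 in Tdrkh-/-. For long reads of 31 to 37 nt, uridine at 4 nt upstream gave 28.8 against a median of 8.93 in Tdrkh-/- and 35.0 against 9.14 in Tdrkh+/-. The position was singled out after its values were seen. With the transcript of the longest coding sequence for each gene the value in Tdrkh+/- was 75.2 against a median of 22.1 from 30 to 10 nt upstream and 31.3 to 46.8 at the other positions within 9 nt. With all members left out it was 50.8 against a median of 15.4 and 20.03 to 34.3. The 6 genes with the most reads at this position are shown with the start codon in capitals, since the alignment of the 5′ end to AUG is the pattern.
Paqr8: tgtcATGacgactgccatcctagagcgcct
Hivep2: taaaATGgacaccggggacacagctc
Gal3st1: tgagATGactctgctgccaaagaagccc
H3f3a: taccATGgctcgtacaaagcagactgccc
Eif5a: taaaATGgcagatgatttggacttcgaga
Arl2bp: tacgATGgacgccctagaagaagagagc
They lie at chr1:20934620-20934649 (plus), chr10:14127656-14127681 (plus), chr11:3996917-3996944 (plus), chr1:180811902-180811930 (minus), chr11:69919291-69919319 (minus) and chr8:94666860-94666887 (plus), and all are member regions. At this 5′ end, Paqr8, a membrane progestin receptor, had 61 short reads in Tdrkh-/- against 323 in Tdrkh+/-. Hivep2, a zinc finger transcription factor, had 58 and 127. Gal3st1, the sulfotransferase that makes testis sulfoglycolipid, had 2 and 153. H3f3a, which encodes the replacement histone H3.3, had 0 and 150, and its 31 to 37 nt reads numbered 7 and 1. Eif5a, a translation factor, had 1 and 100 short and 37 and 5 long reads, and Arl2bp, a partner of the small GTPase ARL2, had 1 and 64 short reads. The 6 were picked by their summed reads, mostly from Tdrkh+/-, so the direction of these counts is a description. Together they held 1040 of the 1747 short reads that began with uridine at this position, which came from 114 genes.

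**Figure D2:**
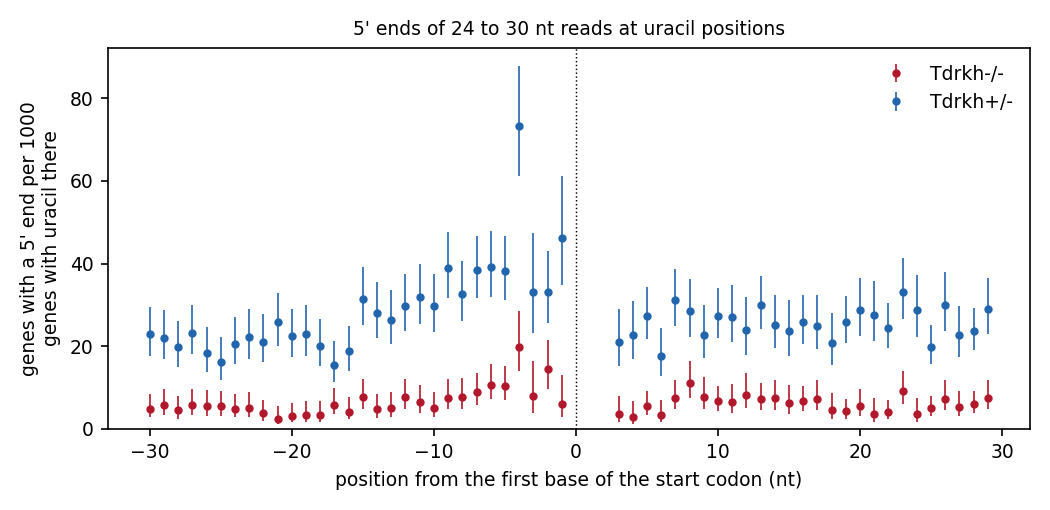
Genes with a 5′ end of 24 to 30 nt reads at each position, per 1000 of the genes that have uracil there, from 30 nt upstream to 29 nt downstream of the first base of the start codon (positions inside it left out); points are values and bars 95% Wilson intervals. Position -4 is highest in both libraries, at 73.3 in Tdrkh+/- and 19.9 in Tdrkh-/-.

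The 5′ base of member reads was mostly uridine although these UTRs are poor in it. At 24 to 30 nt, 76.3% (75.9 to 76.7) of reads in Tdrkh-/- and 84.6% (84.4 to 84.7) in Tdrkh+/- began with uridine, which makes up 21.8% of the bases. At 31 to 37 nt the order was the other way, with 81.9% (81.6 to 82.1) and 77.3% (76.9 to 77.8). When each distinct sequence was counted once, the difference at 24 to 30 nt was gone, at 65.2% and 64.2%, while 65.4% and 60.5% remained at 31 to 37 nt. The gap between the libraries in short reads was thus seen when reads were counted and not when sequences were. In the coding regions of the same genes the shares at 24 to 30 nt were 78.2% and 78.5%, and in their 3′ UTRs 88.9% in both libraries, at thymine contents of 21.5% and 29.4%. At 31 to 37 nt they were 83.3% and 68.9% in the coding regions and 90.7% and 85.0% in the 3′ UTRs. The order of the libraries in long reads was thus the same in all 3 regions.

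**Figure D3:**
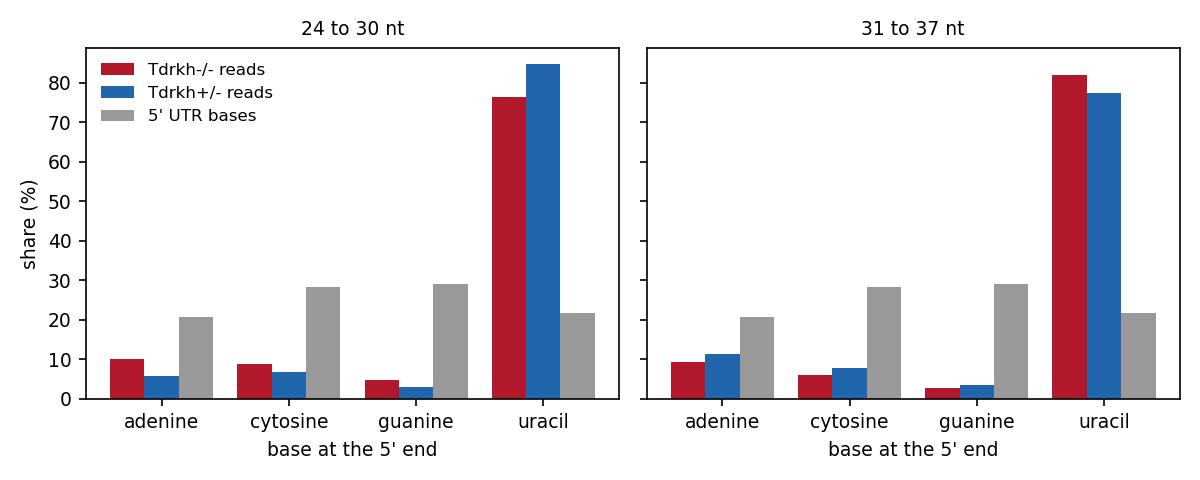
Share (percent) of member reads that begin with each base at 24 to 30 nt (left) and 31 to 37 nt (right), beside the share of each base in the member 5′ UTRs. Uracil leads in both windows and libraries, from 76.3% to 84.6%, against 21.8% of bases.

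The base that follows a read's 3′ end in the transcript differed between libraries. It was uridine for 52.2% of short reads in Tdrkh-/- and 24.8% in Tdrkh+/-, and for 59.9% and 45.0% of long reads. Per distinct sequence the shares were 38.04% and 24.7% for short and 41.0% and 30.4% for long reads, so the order of the libraries was the same. Immediate succession of reads was more frequent than any other spacing. Among pairs in which a 5′ end lay 0 to 20 nt after a 3′ end in the same member, immediate succession took an average of 15.3% in the long reads of Tdrkh-/-, 9.94% in the long reads of Tdrkh+/-, 10.1% in the short reads of Tdrkh-/- and 6.87% in the short reads of Tdrkh+/-. An even spread over the 21 spacings would give 4.76%, so most pairs had another spacing. Adenine at position 10, a mark of reads made by slicing of an opposite strand, was found in 29.8% and 24.7% of the short reads without 5′ uridine, against 25.5% and 21.3% of those with it. Without Fth1 the shares were 30.4% and 28.5% against 28.3% and 27.99%. The gap was thus mostly that of Fth1 in Tdrkh+/- and only in part in Tdrkh-/-. Among long reads without Fth1 they were 36.4% and 38.6% against 32.2% and 26.6%.

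Reads from the members were longer in Tdrkh-/-. Over 24 to 37 nt the mean length was 32.1 nt, against 28.4 nt in Tdrkh+/-. The shift was not particular to 5′ UTRs. In the coding regions of the same genes the means were 32.8 nt and 28.7 nt, and in their 3′ UTRs 32.1 nt and 28.1 nt. The most frequent length was 31 nt in Tdrkh-/- (13.5% of reads) and 28 nt in Tdrkh+/- (22.4%), and without Fth1 it was 32 nt (12.1%) and 27 nt (21.3%). Tdrkh-/- reads spread almost evenly from 31 to 37 nt, between 8.56% and 13.5% at each length. Per microRNA read, the ratio of Tdrkh-/- to Tdrkh+/- was lowest at 27 nt, at 0.112 (0.109 to 0.115), passed from 0.695 at 30 nt to 1.35 at 31 nt, and reached 5.47 (5.22 to 5.73) at 37 nt. In Tdrkh+/- the 33 nt reads had the lowest share of 5′ uridine of all lengths, 55.1%, and in Tdrkh-/- the 25 nt and 33 nt reads did, with 65.9% and 67.3%.

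The shift held within members and at single 5′ ends. Of 670 members with at least 20 reads of 24 to 37 nt in each library, 647 (96.6%) had the longer mean in Tdrkh-/-, by a median of 3.18 nt. Of 487 single 5′ ends with as many reads, in 269 members, 435 (89.3%) were longer in Tdrkh-/-. At these ends the medians were 31.3 nt and 28.5 nt, and the median difference was 2.11 nt with quartiles of 0.615 and 3.88 nt. Since the 5′ end is the same in each such pair, the difference lies at the 3′ end. These counts are not set beside other regions, whose mean lengths, given above, shifted as well.

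**Figure D4:**
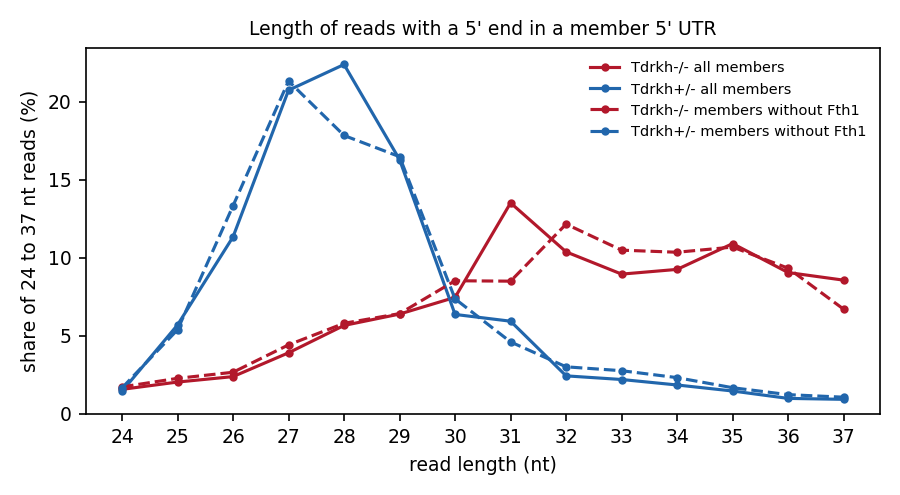
Share (percent) of member reads at each length from 24 to 37 nt, with all members (solid) and without Fth1 (dashed). Tdrkh+/- peaks at 28 nt (22.4%), and Tdrkh-/- has its highest value at 31 nt (13.5%) with a broad plateau above it.

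Summed over the members, piRNA-sized reads were 4.83-fold lower in Tdrkh-/- and long reads 2.65-fold higher. The short reads numbered 40989 in Tdrkh-/- and 188248 in Tdrkh+/-, or 16486 and 79649 per 1000000 microRNA reads (log2 ratio -2.27, -2.29 to -2.26). The long reads numbered 98393 and 35293, or 39574 and 14933 per 1000000 (log2 ratio 1.41, 1.39 to 1.42). Without Fth1 the log2 ratios were -1.99 and 1.44. Over all 7213 5′ UTRs with at least 1 short read they were -2.16 and 1.34. In the coding regions of the member genes they were -1.30 and 2.24, and in their 3′ UTRs -1.64 and 2.41. The members were chosen by their summed short reads, mostly from Tdrkh+/-, so the size of the short-read loss is a description.

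At 24 to 30 nt, 641 of the 785 members (81.7%) were at least 2-fold lower in Tdrkh-/-, beside 71.5% of all 9817 protein-coding transcripts with at least 50 such reads. The share was 69.7% among coding regions and 70.9% among 3′ UTRs with as many reads. Another 13 members (1.66%) were at least 2-fold higher, beside 1.07% of transcripts, 0.791% of coding regions and 2.08% of 3′ UTRs. At 31 to 37 nt, where 630 members had at least 20 reads, 382 (60.6%) were at least 2-fold higher, beside 70.4% of transcripts, 65.7% of coding regions and 77.3% of 3′ UTRs. Long reads of 39 members (6.19%) were at least 2-fold lower, beside 1.23%, 1.71% and 0.973%. The median log2 ratio of members was -2.25 at 24 to 30 nt and 1.38 at 31 to 37 nt, and that of all transcripts -1.51 and 1.47. Since ratios scatter more at low depth, members with fewer than 200 reads were also set beside regions of that depth. Of 588 such members 80.6% were at least 2-fold lower at 24 to 30 nt, against 66.5% of coding regions and 65.7% of 3′ UTRs, and 1.87% were higher, against 0.987% and 2.41%. In the long window 57.2% of these members were at least 2-fold higher, against 62.2% and 72.2%, and 5.88% were at least 2-fold lower, against 2.22% and 1.41%. The minimum of 50 short reads, mostly from Tdrkh+/-, was reached by 3.80% of 5′ UTRs, and by 7585 coding regions and 5621 3′ UTRs. It can favour regions high in Tdrkh+/- more among 5′ UTRs, and matching depth does not remove this. The differences between region types at 24 to 30 nt are therefore a description.

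Within the same genes the 5′ UTR was more often the lower region. For short reads, 654 genes reached the 50-read minimum in both the 5′ UTR and the coding region, and the 5′ UTR had the lower ratio in 413 of them (63.1%). The median of 5′ UTR minus coding region was -0.51 on the log2 scale, with quartiles of -1.55 and 0.46. Against the 3′ UTR it was lower in 289 of 452 genes (63.9%), with a median difference of -0.60. For long reads the counts were nearer to even, 307 of 558 genes (55.0%) and 253 of 446 genes (56.7%). The 5′ UTRs were chosen by their summed short reads, mostly from Tdrkh+/-, and with a median of 101 reads many lie near the minimum. In Tdrkh+/- the members held 188248 short reads in 5′ UTRs, 402305 in coding regions and 1258215 in 3′ UTRs. The minimum thus weighs more on the 5′ UTR, and the direction for short reads is a description. The regions of a gene share its messenger RNA, and no test of these differences was possible with 1 library per genotype.

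**Figure D5:**
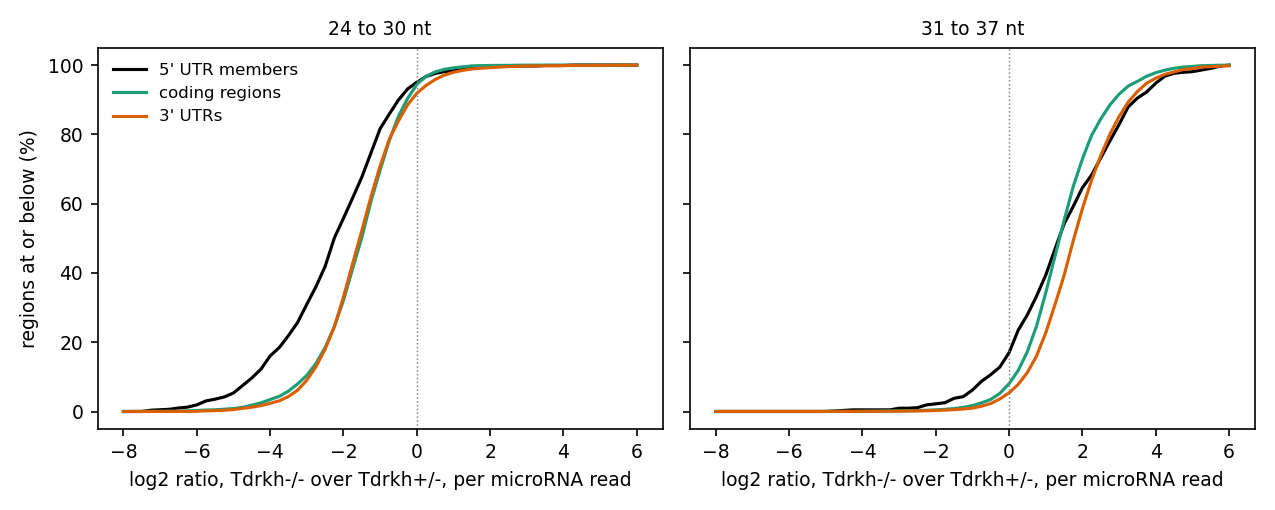
Percent of regions at or below each log2 ratio of Tdrkh-/- to Tdrkh+/- per microRNA read, at 24 to 30 nt (left) and 31 to 37 nt (right), for the 5′ UTR members and for coding regions and 3′ UTRs with at least 50 reads of 24 to 30 nt. The 5′ UTR curve lies to the left at 24 to 30 nt (median -2.25, against -1.51 and -1.56) and has more regions at least 2-fold lower at 31 to 37 nt (6.19%, against 1.71% and 0.973%). Regions were chosen by their 24 to 30 nt reads, so the left panel is a description.

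The 2 length classes usually moved in opposite directions. Of the 630 members measured at both, 495 (78.6%) had a ratio under 1 at 24 to 30 nt and over 1 at 31 to 37 nt, beside 88.7% of transcripts, and 293 (46.5%) were past 2-fold in both, beside 48.6%. At least 2-fold lower in both classes were 38 members (6.03%), beside 1.18% of transcripts, and at least 2-fold higher in both were 5 (0.794%), beside 0.85%. The number of long reads per short read had a median of 1.61 in Tdrkh-/- and 0.154 in Tdrkh+/-, and it was higher in Tdrkh-/- in 706 of 767 members (92.0%). From summed reads it was 2.40 and 0.187 in member 5′ UTRs. The coding regions of the same genes had 2.76 and 0.237, and their 3′ UTRs 2.42 and 0.147, so the direction was not particular to 5′ UTRs. The count of 706 members is not set beside a count for other regions.

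After Fth1, the most abundant members were a mixed set of housekeeping and regulatory genes. Hist1h2bb, a core histone H2B gene, had 1205 and 4065 reads of 24 to 30 nt and 642 and 240 of 31 to 37 nt, with log2 ratios of -1.83 and 1.35. Noct, the circadian phosphatase nocturnin, has an annotated 5′ UTR of 7607 nt and had 1607 and 2635 short reads and 2645 and 691 long reads. Its short reads fell less than those of Fth1, with a log2 ratio of -0.79 (-0.88 to -0.70). Hist1h1d had 581 and 3037 short reads, and Rps25 had 185 and 2995. Rps25 showed the stronger loss, a log2 ratio of -4.09 against -2.46, and its long reads were level at 53 and 50.

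Asb1, a substrate receptor of ubiquitin ligases, had 437 and 2736 short reads, but 99.7% of its reads lie in the coding region or 3′ UTR of another Asb1 transcript. Pfdn6, a subunit of the prefoldin chaperone, had 269 and 2760 short and 301 and 266 long reads. Smcr8, a partner of C9orf72 in autophagy, had 505 and 2334 short and 1385 and 178 long reads, and its long reads rose the most among these 10, by a log2 ratio of 2.89. Rfxank, an activator of MHC class II genes, had 650 and 1978 short reads, and Arhgef17, a guanine nucleotide exchange factor, had 484 and 2081. All 10 of the most abundant members were lower at 24 to 30 nt in Tdrkh-/-, with log2 ratios from -4.09 to -0.79; like the 5′ ends they were ranked by summed reads. With each distinct sequence counted once, Hist1h2bb and Smcr8 were short of 2-fold, at -0.92 and -0.93.

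Among the 59 members with at least 500 short reads, the lowest ratios belonged to Hspa2, Hmgn1, Rcan3, Ubl5 and Nme2. Hspa2, the testis heat shock protein needed in meiosis, had 21 and 769 short reads (log2 -5.27, -5.97 to -4.65) and 127 and 78 long reads. Hmgn1, a nucleosome-binding protein, had 49 and 1360 short and 11 and 85 long reads, so that it was lower in both classes (log2 -4.87 and -3.02). A single 5′ end held 96.8% of the short reads of Hmgn1. Rcan3, a regulator of calcineurin, had 35 and 864 short and 282 and 18 long reads, log2 ratios of -4.70 and 3.90, the widest split of the 5. Ubl5, a ubiquitin-like protein linked to splicing, had 26 and 615 short reads, and Nme2, a nucleoside diphosphate kinase, had 40 and 728 short and 128 and 409 long reads. In each of the 5, between 94.1% and 100% of the short reads began in the last 50 nt before the start codon. Fth1 and Pfdn6, with log2 ratios of -3.56 and -3.43, had 0.140% and 1.09% there. The 5 were picked by their ratio, and this share is not given for the 59 members as a set. A link between position and loss was not tested.

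The highest ratios in that set were those of Rpl6, Dusp6, St3gal2, Fam43a and Birc2. Rpl6, a protein of the large ribosomal subunit, had 883 and 269 short and 174 and 16 long reads, with log2 ratios of 1.64 (1.44 to 1.84) and 3.37. A single 5′ end held 96.4% of the short reads of Rpl6, and 99.3% lay in the last 50 nt. The sign for Rpl6 turned in 3 other ways of counting: the log2 ratio was -2.20 with each distinct sequence counted once, -3.66 with reads that lie wholly inside the 5′ UTR and -3.37 at 26 to 28 nt. Dusp6, a phosphatase of ERK kinases, had 704 and 365 short and 834 and 17 long reads, log2 ratios of 0.87 and 5.54. St3gal2, a sialyltransferase, had 1028 and 774 short reads (log2 0.34) and Fam43a 449 and 340 (log2 0.33). Birc2, an inhibitor of apoptosis, had 298 and 250 short reads, a log2 ratio of 0.18 whose counting interval (-0.07 to 0.43) includes 0. For St3gal2, Fam43a and Birc2 the sign turned with each distinct sequence counted once (log2 -1.51, -0.83 and -1.15), per read listed (-0.09, -0.10 and -0.24) and per transcript-matching read (-0.24, -0.25 and -0.39). Dusp6 stayed above 0 in these 3, at 0.08, 0.45 and 0.30. Except for Rpl6, these members held few reads near the start codon, at most 2.92% in the last 50 nt. They too were picked by their ratio, so their position is a description.

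Gene lists drawn up for the tissue were represented unevenly, beside 3.80% of all 5′ UTRs that are members. Of 84 cytosolic ribosomal protein genes with a 5′ UTR, 21 were members, and of 64 histone genes 22 were. Of 382 zinc finger genes named Zfp, 25 were members. Of the ribosomal protein members 18 (85.7%) were at least 2-fold lower in short reads, near the 81.7% of all members, and 1 was higher, and their log2 ratios had a median of -3.21 beside -2.25 for all members. Of 17 with enough long reads, 7 (41.2%) were at least 2-fold higher, beside 60.6% of all members, and none was lower, with a median of 0.46 beside 1.38. Rps15 had 62 and 1014 short reads, all of them in the coding region or 3′ UTR of another Rps15 transcript.

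Of the 22 histone members, 19 (86.4%, near the share of all members) were at least 2-fold lower at 24 to 30 nt and none was higher. Their median was -2.70 on the log2 scale. In the long window 8 of 18 (44.4%, beside 60.6% of all members) were at least 2-fold higher. Another 3 (16.7%, beside 6.19% of all members) were at least 2-fold lower, and the median was 0.34. Hist4h4, a histone H4 gene, had 75 and 643 short and 1546 and 526 long reads, while Hist1h1a, a linker histone, had 147 and 338 short and 420 and 450 long reads. Histone genes lie in families of similar copies, and reads that match 2 copies are not counted here. Of 31 translation factor genes 6 were members, of which 4 (66.7%) were at least 2-fold lower in short reads, beside 81.7% of all members and 71.5% of transcripts. Among 5 with enough long reads, 4 (80%) were at least 2-fold higher, beside 60.6% of all members, and none was lower. Eef2, the translocation factor of elongation, had 81 and 322 short and 280 and 108 long reads, Pabpc1, the poly(A)-binding protein, had 91 and 209 short reads, and Eif3d, a subunit of an initiation factor, had 1 and 167. Nap1l1, a histone chaperone kept on this list, had 54 and 31.

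Of the 25 zinc finger members 18 (72%, beside 81.7% of all members and 71.5% of transcripts) were at least 2-fold lower in short reads and 1 higher, and their median was -1.30 on the log2 scale, beside -2.25 for all members. Among 19 with enough long reads, 11 (57.9%, near the 60.6% of all members) were at least 2-fold higher and 1 lower, with a median of 1.36. Zfp217 had 870 and 1168 short and 1279 and 103 long reads, and Zfp740 had 224 and 529 short and 775 and 110 long reads. Of 193 ubiquitin system genes 5 were members and 4 of these (80%) were at least 2-fold lower, near the share of all members. Usp26, an X-linked deubiquitinase of the testis, was the exception, with 205 and 214 short reads (log2 -0.14, -0.42 to 0.15).

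Germline regulators gave 4 members, at shares of their lists near or above that of all 5′ UTRs. Of 26 piRNA pathway genes Piwil2, a PIWI protein of the juvenile testis, was the sole member, with 29 and 58 short and 30 and 55 long reads (log2 -1.07 and -0.95). Of 18 spermatogonial genes Dazl, a germ cell RNA-binding protein, was the sole member, with 137 and 717 short and 43 and 60 long reads (log2 -2.46 and -0.55). Of 18 early meiosis genes Rec8, a meiotic cohesin, had 18 and 115 short reads, and Tex11, an X-linked recombination factor, had 3 and 63. All 4 were at least 2-fold lower at 24 to 30 nt in Tdrkh-/-, where 81.7% of all members were. None was at least 2-fold higher at 31 to 37 nt, beside 60.6% of all members. This rests on 4 regions with few long reads, 10 and 11 in Rec8 and 26 and 15 in Tex11.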

How the data were processed

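The authors deposited a table of raw counts for each library, listing every sequence once with its reads. Per the submitters' processing notes, Bowtie and the build mm9 were used; how adapters were trimmed is not given in the sources used here. RNA of 15 to 40 nt was cut from a gel, per the labels' protocols, and the tables hold reads of 18 to 40 nt. Every sequence was searched for exactly, in both orientations, in GENCODE M21 transcripts (GRCm38), using Numba 0.67.0, NumPy 2.4.6 and Python 3.11.15. Tables and intervals were made with pandas 2.3.3 and SciPy 1.17.1, and figures with Matplotlib 3.10.9. A genome sequence was not used here, so a sequence unique among genes may occur elsewhere in the genome. Reads matching 1 gene on either strand were placed by their 5′ end on the longest coding transcript.

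Levels are reads per microRNA read (18 to 25 nt, sense in annotated hairpins). Ratios carry exact conditional binomial intervals and shares Wilson intervals at 95%; reads carry no molecular identifiers and so are not independent molecules. A zero count was set to 3 counts per library for a ratio. A call is a ratio past 2-fold. Named genes are the 10 most abundant members, the 5 members with the highest and the 5 with the lowest ratio (500 or more reads), the 10 most abundant 5′ ends, 3 regions on each side of the minimum and up to 4 members of each list. The rule also picks 1 gene that is not reported here. The position 4 nt before the start codon, the genes shown for it and the alternatives with Fth1 left out, other annotated starts and matched depth were chosen after seeing the data. Members and lists were chosen with earlier results of these data known. On Poisson counts drawn for the 785 members at 24 to 30 nt, 199 of 200 changed 4-fold passed the 2-fold mark and 6 unchanged ones did. Over 10 draws 95.8% of intervals held the true ratio. The draws hold counting error alone, with unchanged members split in proportion to the microRNA reads. They check the computation and cannot show the spread between animals or libraries. The matcher was checked against a string search on 60 sequences, with 0 differences.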

Additional observations from a re-analysis of the deposited data

Results flagged for a closer look

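Reads outside the sense reads of 24 to 37 nt also differed between the libraries in the member regions. Antisense reads of 31 to 37 nt numbered 1846 in Tdrkh-/- and 677 in Tdrkh+/-, a ratio per microRNA read of 2.59 (2.37 to 2.83), in 124 members, and 1595 of them lay in Noct. Sense reads of 38 to 40 nt numbered 21096 and 4917, a ratio of 4.08 (3.95 to 4.21), in 693 members, with 3619 of them in Fth1. Both were singled out because they exceed the control library and enter no comparison above.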

How the results depend on the processing

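No paired analysis was possible because each genotype has 1 library and the labels give no shared replicate numbers. Over 132 recomputed values of the main results, 57 stayed within their counting interval (counts within 1.5 times) and 75 moved. Counts and shares cannot change sign. The summed log2 ratios (12 values in each window) and length differences (9 for the mean, 8 at single 5′ ends) kept theirs. Of 223 values of named genes 12 turned their sign, in 4 genes. Of these, 3 are those of Rpl6 (log2 -2.20, -3.66 and -3.37) and the others, given above, are of St3gal2, Fam43a and Birc2. Another 3 fell short of 2-fold, those of Fth1, Hist1h2bb and Smcr8 with distinct sequences (-0.68, -0.92 and -0.93). The cause of a move was not tested. The summed log2 ratio at 24 to 30 nt (main -2.27) was -1.61 with each distinct sequence counted once, -2.25 without sequences read once, -2.31 with the longest coding sequence, -2.31 with whole reads inside the 5′ UTR, -1.96 without the 10 most abundant members, -2.38 at 200 or more reads, -2.94 at 26 to 28 nt, -2.70 per read listed, -2.85 per transcript-matching read and -1.99 without Fth1. That at 31 to 37 nt (main 1.41) was in the same order 0.65, 1.52, 1.43, 1.44, 1.44, 1.44, 1.80 (33 to 36 nt), 0.98, 0.83 and 1.44, and 1.36 with sense matches alone and 1.44 without reads in the coding region or 3′ UTR of another transcript. Other scalings thus move all ratios together, and members at least 2-fold lower at 31 to 37 nt became 60 per read listed and 71 per transcript-matching read.

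The 39 members lower at 31 to 37 nt were 9 with distinct sequences, 16 in the narrow window and 13 at 200 or more reads, and the 382 higher were 84 with distinct sequences and 129 at 200 or more reads. The 13 higher at 24 to 30 nt were 2 with distinct sequences, 8 with whole reads inside the UTR, 2 at 200 or more reads, 7 in the narrow window, 7 per read listed and 6 per transcript-matching read, and the 641 lower were 167 at 200 or more reads. Minimums of 20, 100 and 200 reads gave 1685, 401 and 197 members. The counts at 200 or more reads thus come from at most 197 members, and the count with whole reads from 633, fewer than in the main setting. A smaller count there does not mean a smaller share. How many members had enough long reads with distinct sequences or in the narrow window is not given, so those counts cannot be read as shares either. The 5′ uridine shares in Tdrkh-/- and Tdrkh+/- (main 76.3% and 84.6%) were 65.2% and 64.2% with distinct sequences, 76.9% and 85.7% without sequences read once, 77.0% and 84.9% with whole reads, 71.4% and 80.7% without the top 10, 81.2% and 87.1% at 200 or more reads and 74.4% and 82.8% without Fth1; 75.3% in Tdrkh-/- with sense matches alone, and in Tdrkh+/- 84.9% with the longest coding sequence and 84.8% without other-region reads.

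The share in the first 10 nt (main 0.483%) was 0.881% with distinct sequences, 0.640% with the longest coding sequence, 0.773% without the top 10, 0.212% at 200 or more reads and 0.637% without Fth1. That in the last 50 nt (main 25.1%) was 24.8% with distinct sequences, 25.4% with sense matches alone, 25.6% with the longest coding sequence, 9.25% with whole reads (which drop reads across the start codon), 24.9% without other-region reads, 31.4% without the top 10, 23.3% at 200 or more reads and 33.04% without Fth1. The mean length difference (main 3.69 nt) was 2.64, 3.75, 3.76, 3.76, 3.73, 3.58, 3.76 and 3.53 nt with distinct sequences, without sequences read once, with the longest coding sequence, with whole reads, without other-region reads, without the top 10, at 200 or more reads and without Fth1. Counting distinct sequences gave no value for the length at single 5′ ends.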

Other observations

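Antisense reads of 24 to 30 nt in the member regions numbered 1551 in Tdrkh-/- and 3267 in Tdrkh+/-, a ratio per microRNA read of 0.451 (0.425 to 0.480), in 208 members, and 2230 of them lay in Noct. In sums over the members, short reads were thus lower and long reads higher in Tdrkh-/- on both strands. Noct alone held 2230 of the short and 1595 of the long antisense reads, and antisense ratios without it are not given.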
